A study of Mus musculus with 3 samples.

Results

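The genes described here are 9 nuclear genes, Ears2, Gatb, Gatc, Qrsl1, Trmu, Mto1, Gtpbp3, Lars2 and Fars2, whose products charge or modify mitochondrial tRNAs, including the glutamate tRNA that is mutated in these mice. They were listed by name, with no threshold on a measured value. They are 9 of 49943 genes in the RefSeq annotation of the mouse build GRCm38.p6 (mm10), of which 25550 had a count in regions called in every library. Open chromatin was measured in single kidney cells by mtscATAC-seq, in which a transposase cuts accessible DNA in fixed, permeabilised cells that keep their mitochondria. Every mouse carried the trnE mutation, a point mutation of the mitochondrial glutamate tRNA gene. Old replicate 1 was 75 weeks of age with a mutation load of 75%, old replicate 2 was 75 weeks of age with a load of 80%, and the young library was 3 weeks of age with a load of 80%. No mouse without the mutation was analysed here, so age was compared within mutant kidneys. The labels do not say whether the old samples came from separate animals, and the young group has 1 library, so the spread behind every p-value is that among these libraries and can be technical in part.

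A mitochondrial tRNA must carry its amino acid and a set of base modifications before the mitochondrial ribosome can use it. Ears2, the mitochondrial glutamyl-tRNA synthetase, loads glutamate onto the glutamate tRNA and also onto the glutamine tRNA. Qrsl1, Gatb and Gatc are the subunits of the amidotransferase that turns glutamate into glutamine on the latter. Mto1 and Gtpbp3 together build the taurine-containing group on the wobble uridine of several mitochondrial tRNAs, and Trmu adds sulfur to that base in the glutamate, glutamine and lysine tRNAs. Lars2 and Fars2 are the mitochondrial leucyl- and phenylalanyl-tRNA synthetases, which charge other tRNAs of the same set. The kidney's proximal tubule, which reclaims filtered solutes, is rich in mitochondria.

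The libraries held 5656, 4302 and 4440 barcodes, with medians of 16288.5, 13338.5 and 23319.5 counts in peaks per barcode (in this and every later set of 3 values the order is old replicate 1, old replicate 2 and young). After filtering, 5315, 3950 and 3976 cells were clustered without the regions of the 9 genes and of the related gene lists below. Old replicate 1 stood apart: its cells were mostly immune, with 3294 macrophage or dendritic-like and 1224 T or NK-like cells. Proximal tubule-like cells numbered 251, 3502 and 3322, loop to collecting duct-like cells 48, 324 and 205, and endothelium-like cells 188, 107 and 50. Old replicate 2 had 4 macrophage or dendritic-like and 2 T or NK-like cells, so these immune classes could be followed only in old replicate 1 and the young library (120 and 75 cells). The 16 proximal tubule markers summed to 1615, 1894 and 2119 CPM in proximal tubule-like cells and to between 286 and 446 CPM in every other class, where CPM (the usual CPM scaling) is relative to all counts in common regions of that class and library. The 15 macrophage or dendritic markers summed to 262, 168 and 171 CPM in proximal tubule-like cells, with 0, 4 and 2 markers at 0, and to 1284 and 1008 CPM in macrophage or dendritic-like cells of old replicate 1 and the young library. Of 14398 barcodes, 99 occurred in more than 1 library.

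Start-site regions were described first, since they are where all but 1 of the genes could be compared on a common footing. The 9 genes overlapped 111 merged regions, of which 32 had a peak in every library. Fars2, which spans chr13:36117428-36537595, had 14 of these common regions and Gtpbp3 (chr8:71486144-71499624) had 6. Lars2 (chr9:123366927-123462675) had 3. Ears2 (chr7:122034162-122067094), Trmu (chr15:85879309-85897394) and Mto1 (chr9:78443479-78474165) had 2 each. Gatb (chr3:85574102-85655624), Gatc (chr5:115333242-115341161) and Qrsl1 (chr10:43874188-43901742) had 1 each. A region over the listed start site was called in all libraries for 8 of the 9 genes. Gatb has no start site in the table used, and its region at chr3:85573573-85574474, over the end of the gene with the lower coordinate, stands in for it. That region also lies within 2 kb of the annotated genes Gm3740 and Gm46809, so its counts are shared with them. The regions of Ears2, Gatc, Qrsl1 and Fars2 also held the start of a neighbour (Ubfd1, Triap1, Rtn4ip1 and Lyrm4), so their counts cannot be assigned to either gene. That is 4 of 8 genes, against 25.4% of the 12444 genes with a start-site region.

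Per kb of region, mean levels at the start sites in proximal tubule-like cells were 71.7 CPM per kb for Gatb (64.6 to 75.3 over the libraries), 57.6 for Ears2 (49.8 to 67.4), 56.5 for Fars2 (47.6 to 67.9), 41.8 for Trmu (40.9 to 43.0), 36.3 for Lars2 (33.8 to 40.9), 32.6 for Gtpbp3 (27.8 to 36.4), 27.7 for Qrsl1 (26.8 to 28.9), 24.2 for Mto1 (22.8 to 25.7) and 20.02 for Gatc (17.9 to 23.3). The ranges of Gatb, Ears2 and Fars2 overlapped, as did those of Lars2 and Gtpbp3, of Gtpbp3 and Qrsl1, and of Mto1 and Gatc. In the mean over libraries the regions of the amidotransferase subunits stood at both ends of this order, with those of Gatb at the top and of Gatc at the bottom.

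RefSeq promoters (GRCm38.p6, 250 bases before to 50 after the start) were found for 8 of the 9 genes. Those of the 4 genes on which the comparisons below turn, and those of Trmu and Mto1 with a less common motif, are given 5′ to 3′ on the gene's strand, with motif matches in capitals. The motifs were searched on both strands: the NRF1 core GCATGCGC, the ETS or GABPA motif CCGGAAG, the YY1 motif AAGATGGCG, the Sp1 motif GGGCGG, the NF-Y box CCAAT, and, as the TATA box, TATAAA. Ears2 (chr7:122067037-122067336, minus strand) has Sp1 letters that begin at -181 and -123 from the start and an inverted CCAAT at -36.
Ears2: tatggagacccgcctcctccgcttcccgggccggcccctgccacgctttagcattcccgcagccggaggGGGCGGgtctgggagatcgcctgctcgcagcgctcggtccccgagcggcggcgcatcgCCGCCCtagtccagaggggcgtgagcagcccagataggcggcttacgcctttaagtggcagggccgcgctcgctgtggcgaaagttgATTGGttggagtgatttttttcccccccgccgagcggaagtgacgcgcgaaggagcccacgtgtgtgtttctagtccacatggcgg
Trmu (chr15:85879077-85879376, plus strand) has the ETS letters in the opposite orientation from base 4 of the transcript.
Trmu: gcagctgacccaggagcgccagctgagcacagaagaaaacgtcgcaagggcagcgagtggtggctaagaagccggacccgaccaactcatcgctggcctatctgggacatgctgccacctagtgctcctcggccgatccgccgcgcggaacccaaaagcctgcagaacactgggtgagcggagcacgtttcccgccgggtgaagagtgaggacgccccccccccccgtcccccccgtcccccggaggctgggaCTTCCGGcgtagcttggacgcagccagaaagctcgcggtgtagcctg
Mto1 (chr9:78447960-78448259, plus strand) has CCAAT at -32 from the start and the YY1 letters from base 18.
Mto1: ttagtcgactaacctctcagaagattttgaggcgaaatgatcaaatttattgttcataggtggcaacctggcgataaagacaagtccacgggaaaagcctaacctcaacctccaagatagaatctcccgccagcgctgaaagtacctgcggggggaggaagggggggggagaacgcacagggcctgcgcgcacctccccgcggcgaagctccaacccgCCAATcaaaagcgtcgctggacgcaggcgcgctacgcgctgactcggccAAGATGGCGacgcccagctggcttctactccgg
Gtpbp3 (chr8:71488478-71488777, plus strand) has CCAAT on either side of an Sp1 match.
Gtpbp3: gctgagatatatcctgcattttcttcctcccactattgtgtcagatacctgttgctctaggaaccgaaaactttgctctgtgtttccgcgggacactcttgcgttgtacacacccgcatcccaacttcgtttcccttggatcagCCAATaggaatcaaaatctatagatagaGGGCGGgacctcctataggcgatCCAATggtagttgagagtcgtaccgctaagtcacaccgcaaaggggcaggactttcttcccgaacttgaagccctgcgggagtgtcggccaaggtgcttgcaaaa
Lars2 (chr9:123366677-123366976, plus strand) and Fars2 (chr13:36117393-36117692, plus strand) have 2 Sp1 matches each.
Lars2: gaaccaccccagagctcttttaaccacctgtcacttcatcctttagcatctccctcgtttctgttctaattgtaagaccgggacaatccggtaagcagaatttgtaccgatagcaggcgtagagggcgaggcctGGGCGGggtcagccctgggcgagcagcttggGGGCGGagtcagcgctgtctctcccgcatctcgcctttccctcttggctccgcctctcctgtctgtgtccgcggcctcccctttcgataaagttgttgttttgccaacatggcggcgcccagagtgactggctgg
Fars2: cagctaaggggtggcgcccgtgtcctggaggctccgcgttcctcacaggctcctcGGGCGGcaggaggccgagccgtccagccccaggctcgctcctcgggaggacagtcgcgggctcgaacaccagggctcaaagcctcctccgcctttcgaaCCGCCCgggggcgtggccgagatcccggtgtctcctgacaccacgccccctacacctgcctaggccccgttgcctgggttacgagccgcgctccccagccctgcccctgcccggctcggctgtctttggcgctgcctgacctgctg

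Sp1 letters were in 6 of the 8 promoters (35.7% of all 32851 promoters in the table) and CCAAT in 4 (37.4%). The ETS letters were in 1 (8.86%), the YY1 letters in 1 (1.40%), and neither the NRF1 core (2.71%) nor TATAAA (13.6%) was in any. The promoters of the 8 genes held 14 to 33 CG pairs, against a median of 7 over all promoters. These matches describe letters in 300 bases and are not sites at which a factor was measured.

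Old and young kidneys were compared within proximal tubule-like cells, to ask whether chromatin at these genes differs with age in the presence of the mutation. None of the 9 genes was called (edgeR's quasi-likelihood test, two-sided, Benjamini-Hochberg adjusted p under 0.05 over all 25550 genes), none had an unadjusted p under 0.05, and DESeq2 called 0. The background was low as well, with 0.744% of all genes called (0.536% higher and 0.207% lower with age). The median log2 difference of old minus young was -0.06 over the 9 genes and 0.00 over all genes.

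For charging of the glutamate tRNA, Ears2 was at 64.5, 48.4 and 53.4 CPM, and the old libraries lay on either side of the young library. Its log2 difference was 0.05, with a 95% interval of -0.37 to 0.47. Gatb was at 67.9, 58.3 and 67.7 CPM (log2 difference -0.12, interval -0.52 to 0.28). Gatc was at 21.3, 17.4 and 16.4 CPM (0.22, interval -0.47 to 0.90), the only one of the 4 whose old libraries were both above the young one. Qrsl1 was at 24.3, 24.7 and 26.1 CPM (-0.10, interval -0.66 to 0.47).

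None of the modification genes was called either. Trmu was at 46.2, 45.7 and 47.8 CPM, a log2 difference of -0.06 (interval -0.50 to 0.38). Mto1 was at 32.2, 30.4 and 31.9 CPM, a difference of -0.04 (interval -0.55 to 0.47). Gtpbp3 was at 55.8, 71.6 and 70.2 CPM, so old replicate 2 was near the young library and old replicate 1 below both (-0.13, interval -0.52 to 0.27). For Trmu the interval leaves room for a difference of about 0.5 on the log2 scale in the downward direction, which bounds what these libraries could show.

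Of the other synthetases, Lars2 was at 538, 741 and 579 CPM, with the old libraries on either side of the young one (log2 difference 0.14, interval -0.26 to 0.55). Fars2 was at 160.0, 167 and 204 CPM. Both old libraries were below the 1 young library, and how often that order held over all genes was not counted. The log2 difference of -0.32 (SE 0.19, interval -0.69 to 0.04) did not pass the test (edgeR unadjusted p = 0.0804, adjusted p = 1.00). The fold was 1.25.

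**Figure D1:**
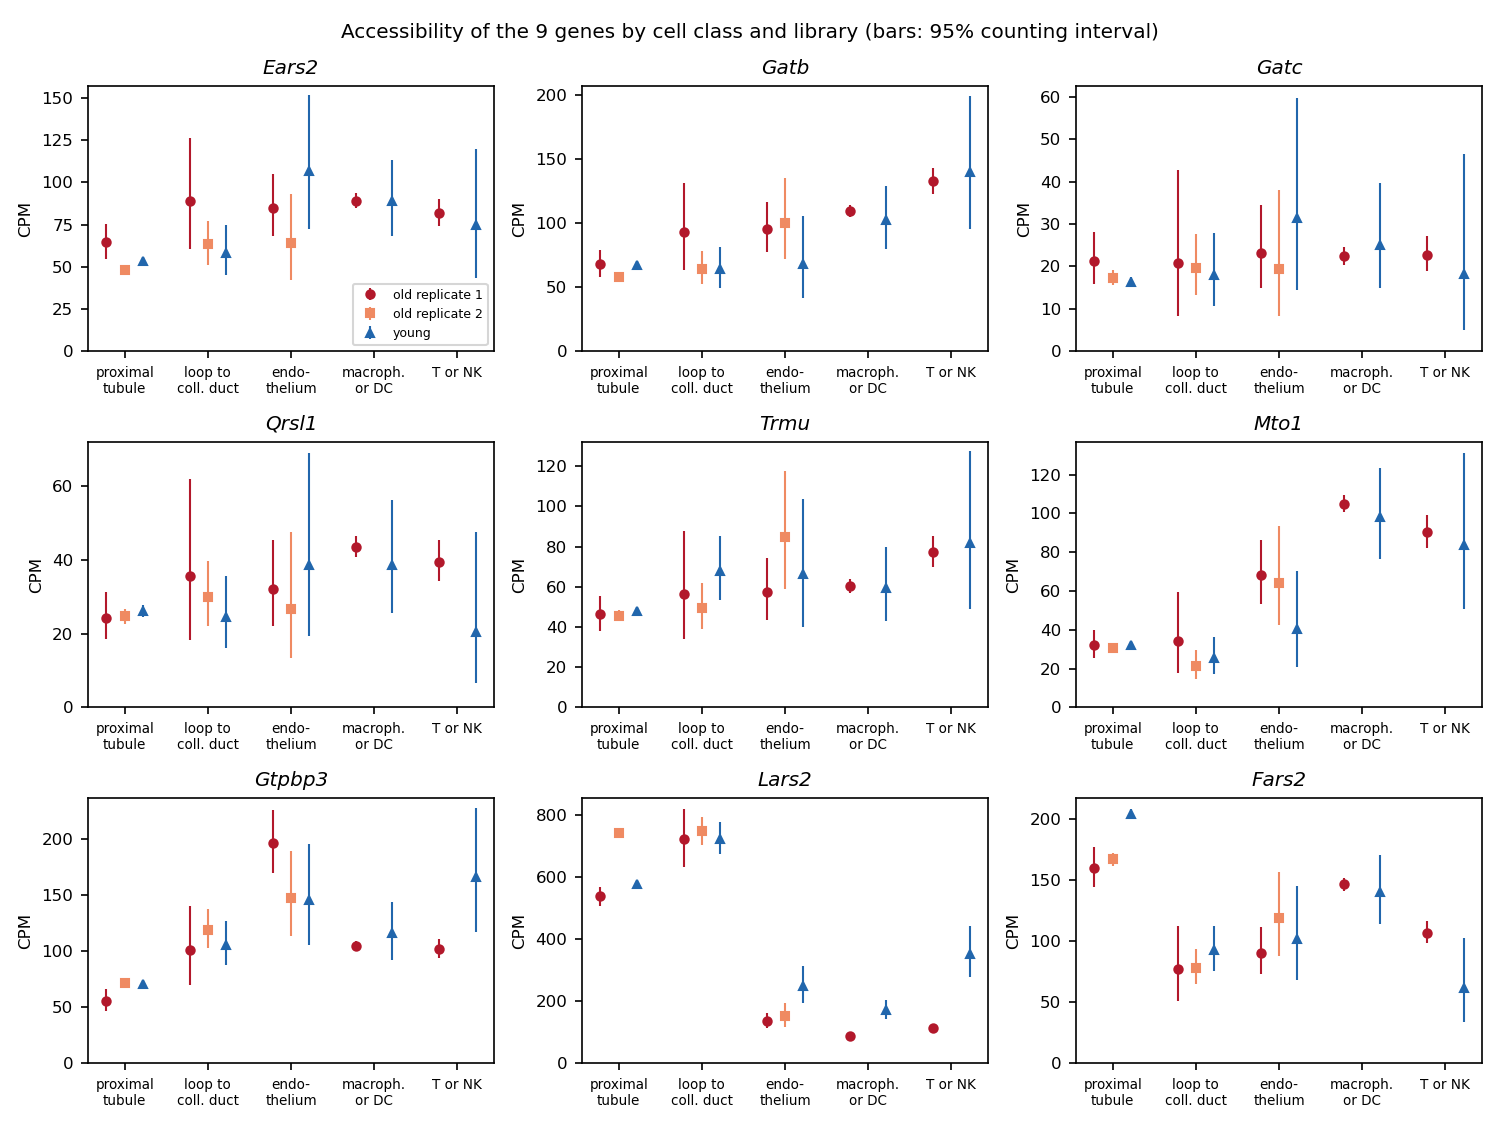
Accessibility in CPM over each gene's body and 2 kb on each side (vertical axis, from 0) by cell class (horizontal axis, the 5 classes of the fit, named by markers) in each library, with exact 95% Poisson intervals on fragments, which cover counting error only. Lars2 is between 538 and 748 CPM in both tubule classes and at most 354 CPM in the other classes of the fit, and Mto1 is at 30.4 to 32.2 CPM in proximal tubule-like cells and at 98.0 and 105 CPM in macrophage or dendritic-like cells.

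Proximal tubule-like cells of the libraries came from different clusters. Cluster 14 gave 131 of the 251 cells of old replicate 1 and 4 of 3322 young cells. Clusters 10, 12 and 16 each had 10 or more cells from all libraries and together held 94, 816 and 179 cells. In those shared clusters 0 of the 9 genes were called, and the difference of Fars2 was -0.21 (SE 0.23). Without cluster 14 none was called either, and Lars2 was at 0.47 (SE 0.34) and Gatc at 0.66 (SE 0.42). The part of these clusters in the values above was not tested further.

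In loop to collecting duct-like cells, which adjust salt and water along the distal nephron, 0 of the 9 genes were called for age by edgeR or by DESeq2, and none had an unadjusted p under 0.05. No gene of 23066 was called there (0% called, 578 at an unadjusted p under 0.05). Old replicate 1 had 48 cells of this class, and the intervals were wide. Ears2 was at 88.8, 63.3 and 58.4 CPM, both old libraries above the young one, with a log2 difference of 0.32 (interval -0.40 to 1.04). Trmu was at 56.2, 49.4 and 67.9 CPM, both old libraries below, with a difference of -0.39 (interval -1.10 to 0.31). Lars2 was level at 722, 748 and 724 CPM (0.01, interval -0.31 to 0.33). The age difference itself did not differ between the tubule classes for any of the 9 genes at this threshold (edgeR interaction, adjusted p = 1.00 for each, 0.0357% of all genes called, 0.0238% higher and 0.0119% lower, none of the 9 at an unadjusted p under 0.05). The interaction ran from -0.47 for Qrsl1 (interval -1.51 to 0.56) to 0.33 for Trmu (interval -0.39 to 1.04).

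**Figure D2:**
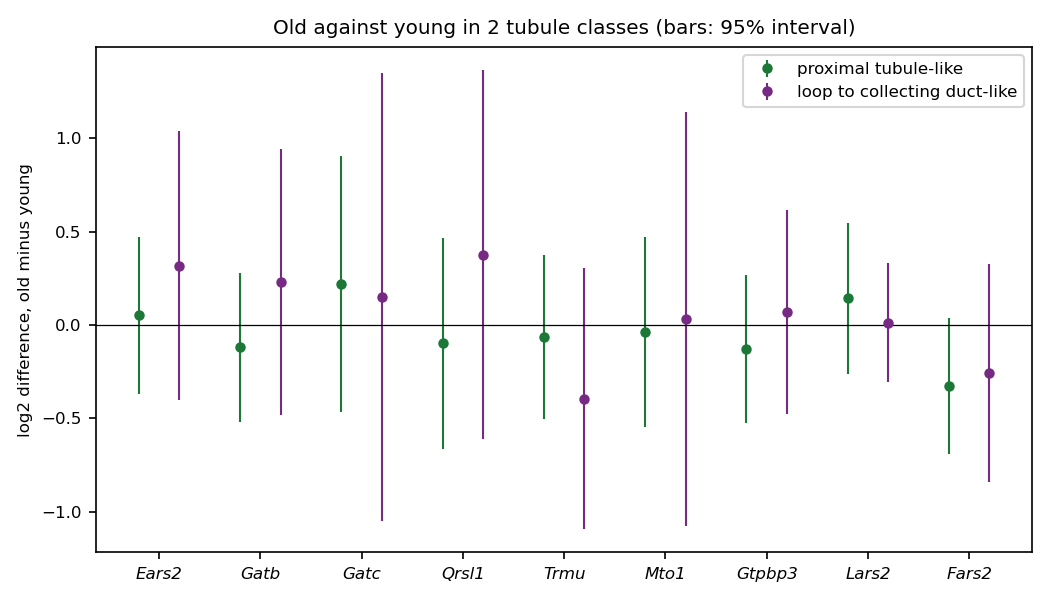
Log2 difference of old minus young (vertical axis) for each gene in proximal tubule-like and loop to collecting duct-like cells, as points with 95% intervals from edgeR. Every interval crosses 0, and Fars2 in proximal tubule-like cells comes nearest to excluding it, from -0.69 to 0.04.

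In immune classes each age had 1 library, so values are given with no test. In macrophage or dendritic-like cells, 8 of the 9 genes differed by less than 0.2 on the log2 scale between old replicate 1 and the young library. The exception was Lars2, at 88.7 CPM (95% Poisson interval 84.6 to 93.0, counting error only) against 171 CPM (142 to 204). In T or NK-like cells Lars2 was at 114 CPM (105 to 123) in old replicate 1 against 354 CPM (279 to 441) in the young library, the largest of the 9 differences there (log2 -1.64). Qrsl1 (0.95), Fars2 (0.80), Gtpbp3 (-0.70) and Gatc (0.33) also differed by more than 0.2 in that class, and Qrsl1 and Gatc had 9 and 8 counts in the young library. The young library was mostly proximal tubule-like cells, in which Lars2 is high. The 16 proximal tubule markers summed to 438 CPM in macrophage or dendritic-like cells of both libraries, with 2 (old) and 3 (young) at 0. In T or NK-like cells they summed to 310 CPM in old and 340 CPM in young cells, with 3 and 4 at 0, and the 15 T or NK markers to 1926 and 771 CPM, with 0 and 6 at 0. Their part in the Lars2 difference was not tested.

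The cell classes were then compared, with library as a term in the fit, to show where in the kidney each gene's chromatin is more open. The number of the 9 genes called was 2 against loop to collecting duct-like cells (19.1% of 24579 genes were called, 11.9% higher and 7.18% lower), 4 against endothelium-like cells (40.1%, 24.1% higher and 16% lower), 5 against macrophage or dendritic-like cells (54.9%, 31.1% higher and 23.8% lower) and 6 against T or NK-like cells (58.6%, 34.2% higher and 24.4% lower). With both directions pooled these counts lie near the background shares. By direction, 1 gene was higher and 1 lower against loop to collecting duct-like cells, and 2 and 2 against endothelium-like cells. Against macrophage or dendritic-like cells 1 was higher and 4 lower, and against T or NK-like cells 2 and 4. With DESeq2 the last 2 pairs were 2 and 1, and 2 and 3. The description below concerns which genes differed and where in the gene. All class comparisons use the same proximal tubule-like sums. RLE size factors moved the median log2 difference of all genes from 0.05 to 0.24 against macrophage or dendritic-like cells and from 0.20 to 0.40 against T or NK-like cells. In the former the genes called higher and lower went from 7635 and 5849 to 8467 and 4055.

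Among the charging genes, Ears2 was lower in proximal tubule-like cells than in macrophage or dendritic-like cells, at 64.5, 48.4 and 53.4 CPM against 89.2 CPM in old replicate 1 and 88.7 CPM in the young library. The log2 difference was -0.45 (SE 0.19, edgeR adjusted p = 0.0446). This call was lost without any single library (adjusted p = 0.123 without old replicate 1, 0.0869 without old replicate 2 and 0.134 without the young library) and under size factors scaled by RLE (adjusted p = 0.224). Tested as a single region, the start-site region of Ears2 did not pass there (-0.70, SE 0.35, edgeR adjusted p = 0.0902). Its other common region, chr7:122034038-122035029, was at 2.34, 2.41 and 2.11 CPM in the proximal tubule. In macrophage or dendritic-like cells that region was at 11.2 and 14.3 CPM (-2.87, SE 0.82, edgeR adjusted p = 0.00237). Gatb, at 67.9, 58.3 and 67.7 CPM in the proximal tubule, reached 133 and 141 CPM in T or NK-like cells of old replicate 1 and the young library, with no overlap (log2 difference -0.84, SE 0.18, edgeR adjusted p = 0.000725). It was also called lower against macrophage or dendritic-like cells (-0.54, SE 0.18, edgeR adjusted p = 0.0133), but not without old replicate 1 (0.121) or with RLE (0.0902). Without the young library Gatb was called against endothelium-like cells as well.

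The other 2 amidotransferase subunits were not called in any of these comparisons. Gatc ranged from 16.4 to 31.5 CPM and Qrsl1 from 20.4 to 43.6 CPM over the 13 sums of class and library. Against T or NK-like cells the log2 difference of Gatc was -0.01 (95% interval -0.79 to 0.76) and that of Qrsl1 -0.18 (-0.84 to 0.47), beside -0.84 (-1.22 to -0.45) for Gatb. The difference between the subunits was not tested. With all merged regions in place of the common ones Gatc was called lower in the proximal tubule than in macrophage or dendritic-like cells (-1.18, SE 0.33, edgeR adjusted p = 0.00958). The added regions were not called in every library. Of the 4 merged regions of Gatc, old replicate 1 had a peak in 4, old replicate 2 in 1 and the young library in 2. Counts exist only in a library's own peaks, so the other values are 0 by construction. This call therefore cannot show a difference between the classes.

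Of the modification genes, Trmu ranged from 45.7 to 84.6 CPM over the 13 sums of the fit. In neutrophil-like cells of old replicate 1, outside the fit, it was at 14.2 CPM (95% Poisson interval 6.503 to 27.0, from 18 counts). It was called against T or NK-like cells alone (log2 difference -0.61, SE 0.21, edgeR adjusted p = 0.0186), and not without old replicate 1 (0.365) or with RLE (0.0878). Mto1 and Gtpbp3, partners in the same modification, were both lower in proximal tubule-like cells than in endothelium-like, macrophage or dendritic-like and T or NK-like cells. Mto1 was at 32.2, 30.4 and 31.9 CPM in the proximal tubule, 34.0, 21.2 and 25.4 CPM in loop to collecting duct-like cells, and 105 and 98.0 CPM in macrophage or dendritic-like cells. The log2 difference from the latter was -1.50 (SE 0.21, edgeR adjusted p = 6.1e-06), and from T or NK-like cells -1.23 (SE 0.22, 0.000113). Against endothelium-like cells it was -0.72 (SE 0.20, edgeR adjusted p = 0.00801), a call lost without old replicate 1 (0.101) or old replicate 2 (0.0871).

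Gtpbp3 was the only gene called lower in the proximal tubule in all 4 comparisons. It was at 55.8, 71.6 and 70.2 CPM there, at 101, 119 and 106 CPM in loop to collecting duct-like cells and at 196, 148 and 145 CPM in endothelium-like cells, with no overlap. The log2 differences were -0.63 (SE 0.17, edgeR adjusted p = 0.0107) and -1.18 (SE 0.17, 1.71e-05), and the first was lost without old replicate 2 (0.116). Against macrophage or dendritic-like cells it was -0.62 (SE 0.19, edgeR adjusted p = 0.00815) and with RLE -0.44 (0.0614). Against T or NK-like cells it was -0.75 (SE 0.20, edgeR adjusted p = 0.00319).

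Lars2 and Fars2 went the other way. Lars2 was at 538, 741 and 579 CPM in the proximal tubule and 722, 748 and 724 CPM in loop to collecting duct-like cells, a log2 difference of -0.16 (interval -0.55 to 0.24, edgeR adjusted p = 0.670). In endothelium-like cells it was at 136, 151 and 248 CPM, which is 4.01-fold lower than in the proximal tubule (log2 difference 2.00, SE 0.21, edgeR adjusted p = 3.9e-07). It was 5.44-fold lower in macrophage or dendritic-like cells (2.44, SE 0.24, edgeR adjusted p = 8.2e-08) and 3.53-fold lower in T or NK-like cells (1.82, SE 0.25, 4.3e-06). The last of these was 1.23 without old replicate 1 and 2.44 without the young library. Fars2 was at 160.0, 167 and 204 CPM in the proximal tubule against 76.9, 78.3 and 92.4 CPM in loop to collecting duct-like cells, with no overlap (log2 difference 1.18, SE 0.18, edgeR adjusted p = 0.000104). It was also higher than in endothelium-like cells (0.95, SE 0.19, edgeR adjusted p = 0.000441) and T or NK-like cells (1.06, SE 0.22, 0.000333). In T or NK-like cells the size rested on the library, from 0.61 without the young library to 2.02 without old replicate 1. Against macrophage or dendritic-like cells Fars2 was at 0.43 (SE 0.20, edgeR adjusted p = 0.0695), and it was called there with RLE (0.62, SE 0.17, adjusted p = 0.00579) and without old replicate 1.

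**Figure D3:**
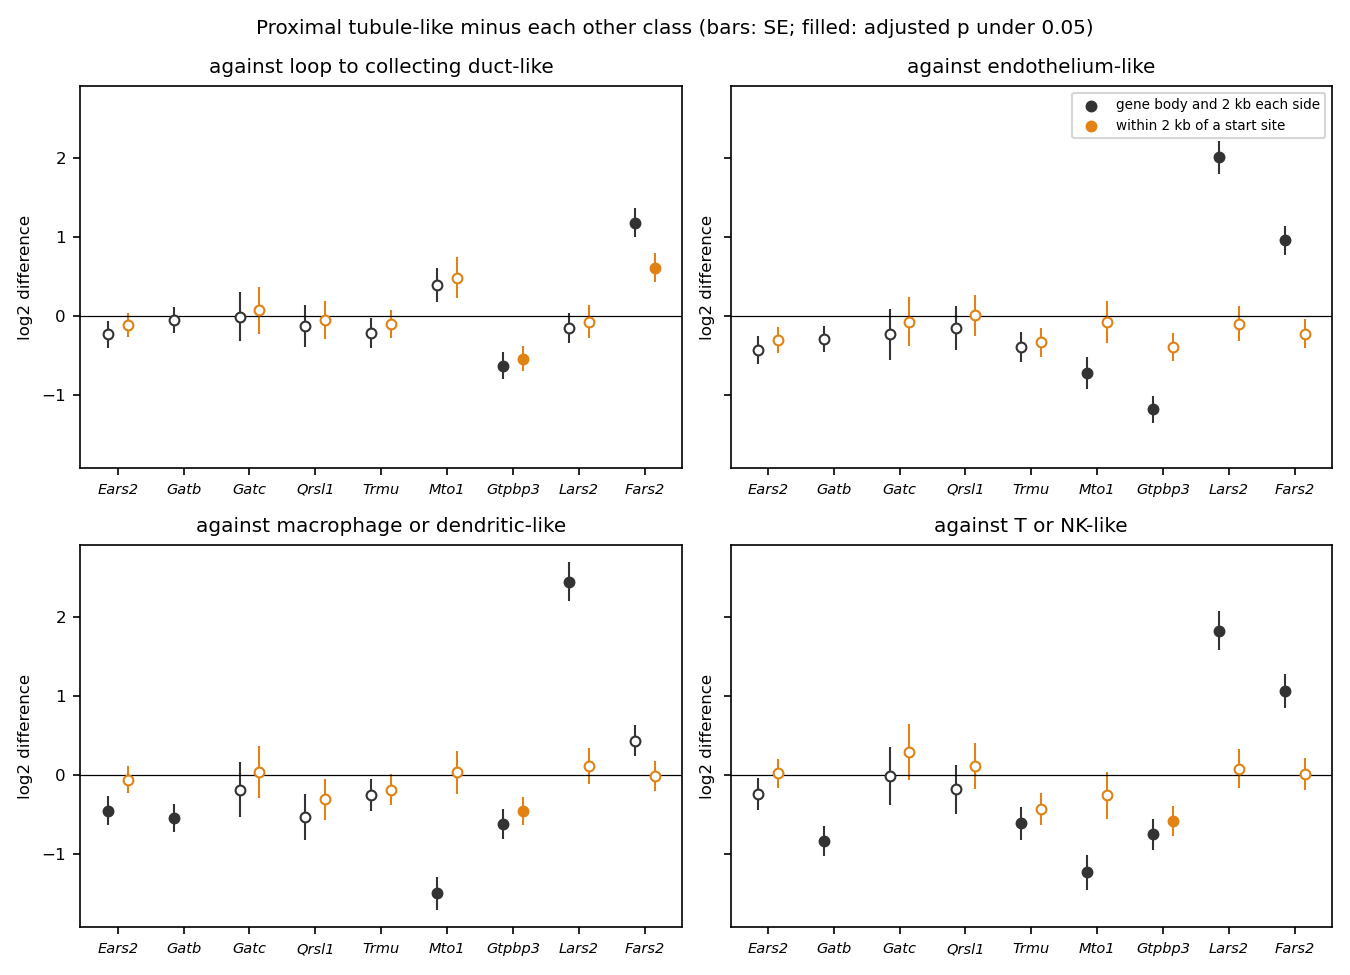
Log2 difference of proximal tubule-like minus each other class (vertical axis), with SE, for counts over the gene body and 2 kb on each side and for regions within 2 kb of a start site, where filled points have an edgeR adjusted p under 0.05. Lars2 is between 1.82 and 2.44 over the gene body against the 3 non-tubule classes and between -0.10 and 0.11 near the start site, and Gatb has no start-site value.

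Near the start site most of these differences were not seen. With only regions within 2 kb of a start site, 2 of 8 genes were called against loop to collecting duct-like cells (12.0% of 14642 genes), 0 against endothelium-like cells (31.3%), 1 against macrophage or dendritic-like cells (45.8%) and 1 against T or NK-like cells (51.2%). Gtpbp3 was called in 3 of the 4, with log2 differences of -0.54 (SE 0.16, edgeR adjusted p = 0.0266), -0.46 (SE 0.18, 0.0365) and -0.58 (SE 0.19, 0.0132). Fars2 was called against loop to collecting duct-like cells (0.61, SE 0.18, edgeR adjusted p = 0.0278). Its start-site region was at 64.5, 45.3 and 51.3 CPM in the proximal tubule and 38.5, 37.5 and 38.6 CPM in the loop to collecting duct, and it is shared with Lyrm4. Lars2 at its start site was at 31.1, 30.6 and 37.1 CPM in the proximal tubule and between 33.9 and 66.5 CPM in the other classes of the fit. Its log2 difference there was -0.10 against endothelium-like, 0.11 against macrophage or dendritic-like and 0.08 against T or NK-like cells.

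The Lars2 signal came from elsewhere. The region at chr9:123461444-123462477, with its centre 95033.5 bases past the start site and within 2 kb of the predicted gene Gm40586, held 93.3%, 95.2% and 92.8% of the Lars2 counts in proximal tubule-like cells. Whether it is exonic or intronic was not assigned, since the table used gives gene spans. It was at 502, 706 and 537 CPM in the proximal tubule, 678, 701 and 682 CPM in the loop to collecting duct, 89.6, 111 and 171 CPM in endothelium-like cells, 49.1 and 123 CPM in macrophage or dendritic-like cells and 74.3 and 295 CPM in T or NK-like cells. Per kb it ranked 10 of 72317 common regions in proximal tubule-like cells of each library, and 6409 in macrophage or dendritic-like cells of old replicate 1. Its age difference in the proximal tubule was 0.14 with an SE of 1.23.

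Other high regions across the genome had the same pattern as that Lars2 region. Among 1111 other regions with a mean of at least 100 CPM, the 5 whose log2(CPM + 5) was most like it over the 13 sums had Pearson r between 0.991 and 0.993, given as a description since the sums share libraries. They lie on other chromosomes, and 3 of them have no annotated gene within 2 kb. The closest, chr3:5859818-5860867, was at 294, 382 and 285 CPM in the proximal tubule, 385, 409 and 351 CPM in the loop to collecting duct, 36.2, 62.9 and 112 CPM in endothelium-like cells, and 25.8 and 172 CPM in T or NK-like cells. The comparison was added after the values were seen. The sources used here do not give any masking of nuclear sequence that resembles mitochondrial DNA, and no genome sequence was used, so whether these regions hold such sequence was not tested.

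Fars2 also had class differences inside the gene, in both directions. The region at chr13:36466085-36467030, with its centre 348914 bases past the start, was at 28.5, 49.4 and 65.9 CPM in the proximal tubule, 5.92, 4.31 and 5.18 CPM in the loop to collecting duct, and 0 to 4.53 CPM in the remaining classes of the fit. A neighbour at chr13:36460096-36461024, chosen after its values were seen, was at 19.0, 24.2 and 34.3 CPM, with 0 to 3.50 CPM in every other class. In a test of single regions added after the data were seen, both were higher in the proximal tubule than in the loop to collecting duct, by 3.44 (SE 0.61, edgeR adjusted p = 1.4e-05) and 4.12 (SE 0.76, 2.4e-05) on the log2 scale, with 20.2% of 64066 regions called (14.6% higher and 5.64% lower). In both the old libraries were below the young one. Another Fars2 region, chr13:36517953-36518980, also chosen after its values were seen, went the other way, at 9.37, 5.04 and 1.91 CPM, with an age difference of 1.85 (SE 0.62, edgeR unadjusted p = 0.00341, adjusted p = 0.215) that did not pass. For the former regions the age differences were -0.77 (SE 0.36, edgeR adjusted p = 0.741) and -0.68 (SE 0.33, 0.816), which did not pass, and 0 of the 32 common regions of the 9 genes were called for age by edgeR or by DESeq2 (0.749% of 72316 regions, 0.691% higher and 0.0581% lower). The region at chr13:36466085-36467030 was at -1.18 without old replicate 2 and -0.50 without old replicate 1. Further common regions, also chosen after their values were seen, were lower in the proximal tubule than in macrophage or dendritic-like cells. One at chr13:36314599-36315660 was at 0.85, 0.91 and 0.76 CPM against 18.9 and 34.3 CPM (-5.40, SE 0.88, edgeR adjusted p = 4.4e-07). Another at chr13:36533574-36534969 was at 7.45, 3.82 and 6.66 CPM against 27.8 and 28.6 CPM (-2.36, SE 0.68, 0.00258).

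**Figure D4:**
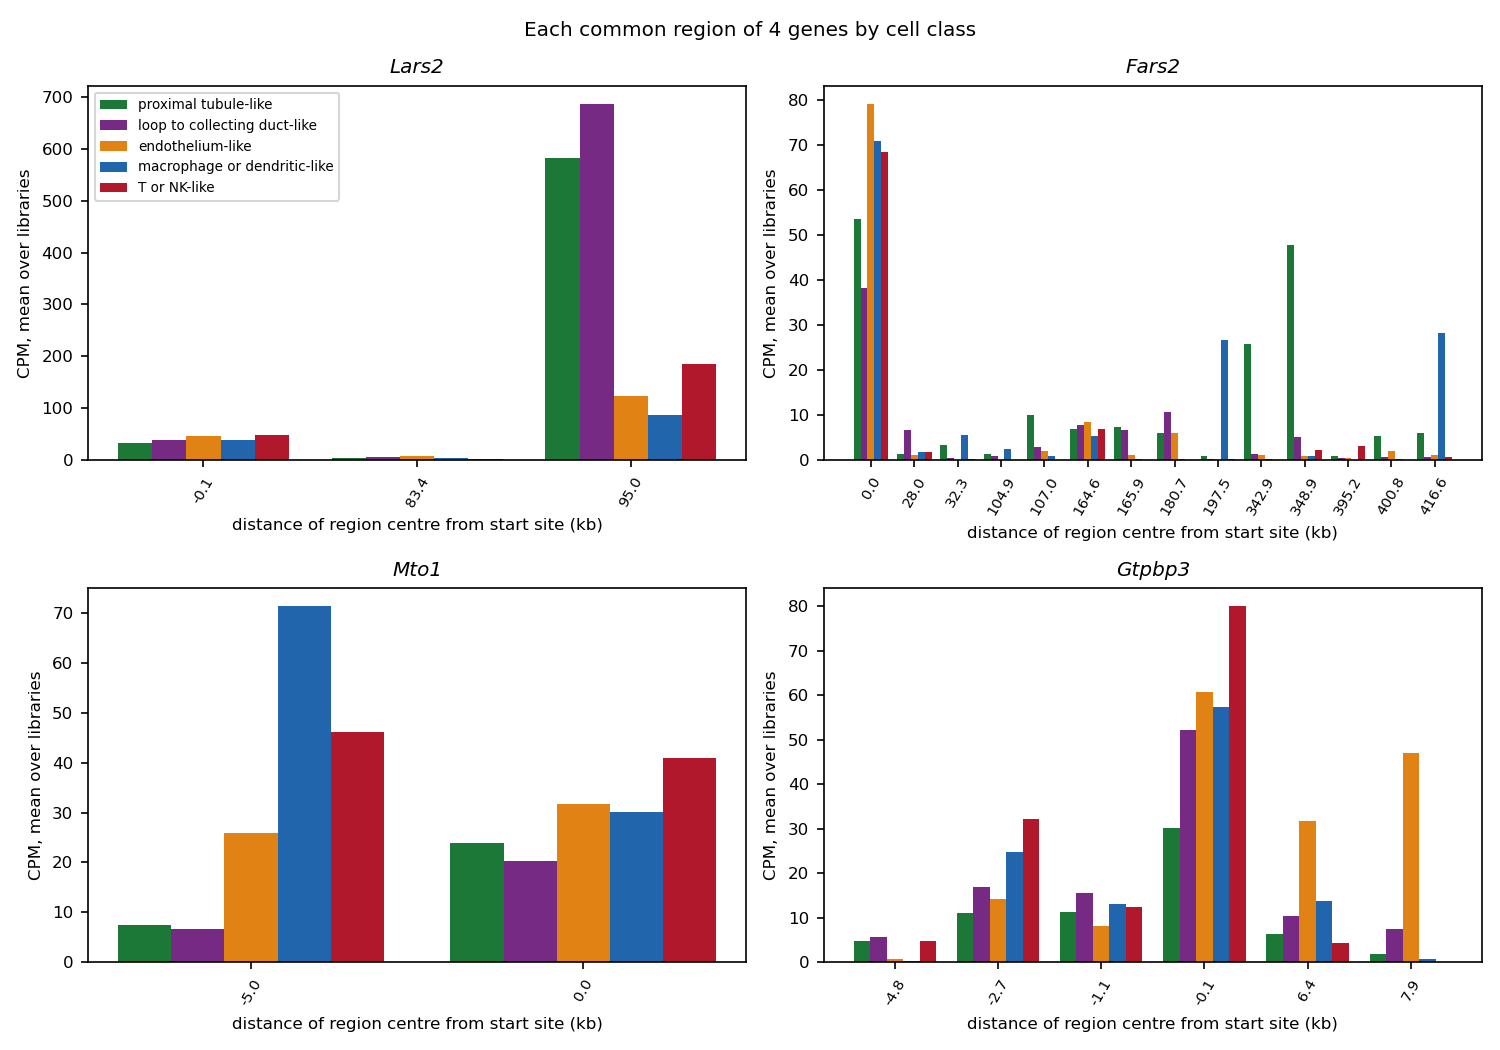
Mean CPM over libraries (vertical axis, from 0) in each common region of Lars2, Fars2, Mto1 and Gtpbp3, placed by the distance of its centre from the start site in kb (horizontal axis, not to scale), with 1 bar per cell class. The tall Lars2 bars stand at 95033.5 bases from the start, the proximal tubule-like bars of Fars2 at 342917 and 348914 bases, and the macrophage or dendritic-like bar of Mto1 at -5043 bases.

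Mto1 and Gtpbp3 each had a region near a neighbouring gene in their counts. The annotated span of Mto1 begins before its listed start site, and its region at chr9:78442652-78443682 lies over the start of Cgas, the cytosolic DNA sensor. That region was at 9.58, 6.41 and 6.52 CPM in the proximal tubule, 31.7, 26.6 and 19.2 CPM in endothelium-like cells, 70.5 and 72.3 CPM in macrophage or dendritic-like cells and 47.0 and 45.3 CPM in T or NK-like cells. The start-site region of Mto1 itself was at 22.6, 24.0 and 25.4 CPM in the proximal tubule and 36.7, 37.5 and 21.0 CPM in endothelium-like cells. In macrophage or dendritic-like cells it was at 34.4 and 25.8 CPM, and in T or NK-like cells at 43.3 and 38.5 CPM. Tested as a single region it was lower than in T or NK-like cells (-0.99, SE 0.44, edgeR adjusted p = 0.0482), but Mto1 was not called there with start-site regions alone. It did not pass against macrophage or dendritic-like cells (-0.60, SE 0.42, edgeR adjusted p = 0.241) or endothelium-like cells (-0.19, SE 0.39, 0.757). For Gtpbp3, the region at chr8:71496178-71497115, inside the annotated gene, with no listed start site and within 2 kb of Plvap, an endothelial diaphragm gene, was at 2.13, 2.70 and 1.05 CPM in the proximal tubule and 69.9, 44.7 and 26.2 CPM in endothelium-like cells. The Gtpbp3 region away from the start site with the highest mean CPM was another, chr8:71485554-71486480, within 2 kb of Ano8. That region was at 8.95, 13.4 and 11.2 CPM in the proximal tubule and 15.1, 12.1 and 15.7 CPM in endothelium-like cells. In macrophage or dendritic-like cells it was at 20.8 and 28.6 CPM, and in T or NK-like cells at 25.8 and 38.5 CPM. The start-site region of Gtpbp3 was at 25.8, 31.2 and 33.8 CPM in the proximal tubule, 47.3, 51.1 and 58.0 CPM in the loop to collecting duct and 49.3, 50.8 and 82.2 CPM in endothelium-like cells, with no overlap. Tested as a single region it did not pass against the loop to collecting duct (-0.71, SE 0.33, edgeR adjusted p = 0.130) or endothelium-like cells (-0.80, SE 0.34, 0.0527). It was lower than in macrophage or dendritic-like cells (-1.25, SE 0.37, edgeR adjusted p = 0.00369) and T or NK-like cells (-1.51, SE 0.38, 0.000620). In those comparisons 11026 and 9454 of 64066 regions were called lower and 21515 and 24440 higher. The median log2 difference there was 0.48 and 1.13 over all regions, against -0.0039 and 0.09 over all genes with start-site regions alone. The baselines of these fits differ, so their log2 differences and calls cannot be set against each other directly.

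Related genes were read from 4 lists. For age, 0 of 16 other mitochondrial aminoacyl-tRNA synthetases, 0 of 19 other mitochondrial tRNA modification genes, 0 of 6 tRNA processing genes and 0 of 8 cytosolic counterparts were called in proximal tubule-like cells by edgeR. The smallest unadjusted p was that of Trub2, a pseudouridine synthase (log2 difference -0.48, SE 0.23, edgeR adjusted p = 0.898), and it was the only one of the 49 genes under 0.05. None was called in loop to collecting duct-like cells, where none had an unadjusted p under 0.05.

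Between tubule classes, only Cars2, the mitochondrial cysteinyl-tRNA synthetase, was called among the 49 genes (19.1% of all genes were called), lower in the proximal tubule by a log2 difference of -0.92 (SE 0.21, edgeR adjusted p = 0.00286). Against T or NK-like cells, where 24.4% of all genes were lower and 34.2% higher, 8 of 16 other synthetases were lower and none higher, among them Hars2 (histidyl, -0.89, SE 0.16, edgeR adjusted p = 0.000101) and Sars2 (seryl, -0.79, SE 0.17, 0.000633). The median over the list was -0.53 and over all genes 0.20. With RLE 5 were lower, at a median of -0.33, and within 2 kb of a start site 3 of 13 were lower at a median of 0.00. Of the other modification genes 4 of 19 were lower against T or NK-like cells, near the share of all genes, led by the RNA cytosine methyltransferases Nsun2 (-0.94, SE 0.14, edgeR adjusted p = 1.8e-05) and Nsun4 (-1.26, SE 0.23, 0.000121), while the list's median moved from -0.14 to 0.07 with RLE.

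Against macrophage or dendritic-like cells, where 23.8% of all genes were lower and 31.1% higher, 8 of the 16 other synthetases were lower and 1 higher (median -0.46), but 2 were lower and 1 higher with RLE. Of the other modification genes 9 of 19 were lower, or 5 with RLE and 1 higher, led by Trmt1, a tRNA guanosine methyltransferase (-1.05, SE 0.20, edgeR adjusted p = 0.000161). Of the 6 processing genes, 2 were lower and 0 higher against T or NK-like cells (median -0.51), and 2 and 0 against macrophage or dendritic-like cells (median -0.17). Elac2, which trims tRNA 3′ ends, was lower than in T or NK-like cells (-0.84, SE 0.18, edgeR adjusted p = 0.000461) and macrophage or dendritic-like cells (-0.65, SE 0.17, 0.00277). Of the 8 cytosolic counterparts, 3 were lower and 1 higher than in macrophage or dendritic-like cells, or 2 and 2 with DESeq2. Farsb, a subunit of cytosolic phenylalanyl-tRNA synthetase, was higher there (1.08, SE 0.18, edgeR adjusted p = 5.7e-05). Ctu1, which thiolates cytosolic tRNAs, was lower (-1.26, SE 0.18, edgeR adjusted p = 8.4e-06). Against T or NK-like cells 5 of the 8 were lower and 1 higher (median -0.69), where 24.4% of all genes were lower and 34.2% higher. Against endothelium-like cells 2 of 16, 3 of 19, 1 of 6 and 2 of 8 genes of the lists were called, led by Trmt1 (-1.45, SE 0.18, edgeR adjusted p = 2.9e-06), each a smaller share than the 40.1% of all genes.

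Over the 13 sums of class and library, Lars2 varied most of the 9 genes, from 88.7 to 748 CPM, while the fold from lowest to highest was 1.85 for Trmu and 1.93 for Gatc. The SD of log2(CPM + 5) was 0.21 for Gatc, 0.28 for Trmu and 1.14 for Lars2, where the added 5 narrows the spread of low genes most. Mto1 varied by 4.94-fold and Fars2 by 3.33-fold. On the same scale Lars2 ran against the mean of the other 8 genes (Pearson r -0.93) and Fars2 did so less closely (-0.67), while Ears2 ran with the others (0.68). The closest pairs were Gatb with Mto1 (r 0.88) and Ears2 with Gatc (0.86). Among 15579 other genes, those most like the mean of the 9 were Dock3 (r 0.95), D330050I16Rik, Tsga10ip and Sart1 (0.95 each, with counts from the same regions) and Gm34305 (0.94). The sums share libraries and differ in depth, so these values are descriptions.

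B or plasma-like cells were named only when cells with at least 3000 counts were kept, with 126, 0 and 69 cells. There Lars2 was again higher in the proximal tubule (log2 difference 1.14, SE 0.24, edgeR adjusted p = 0.000606), and Ears2 (-0.76, SE 0.24, 0.0139) and Gatb (-0.85, SE 0.21, 0.00226) were lower, with 45.8% of 24500 genes called (29.6% higher and 16.2% lower). The other 6 genes were not called.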

How the data were processed

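Per the submitters' processing notes, the authors used Cell Ranger ATAC 2.1.0 with the build mm10. The deposited matrices give, for each barcode and peak, unnormalized counts of transposase cuts, over peaks called on each library alone. The sources used here do not give any masking of nuclear sequence that resembles mitochondrial DNA.

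Peaks were merged where they overlapped (bedtools 2.31.1) into 250005 regions, 72317 of them with a peak in every library (common regions, holding 67.4%, 82.1% and 82.7% of counts). Barcodes with at least 1000 counts were kept and simulated-doublet neighbours removed (248, 133 and 135). Regions common to the libraries with counts in 1% of cells or more, less those of the members and lists, gave 30 latent semantic components and 19 Leiden clusters (scikit-learn 1.9.0, leidenalg 0.10.2). Clusters were named from 14 marker lists over all merged regions, a choice made after the clusters were seen, with at least 3 raised markers and a margin of 0.25 (log2). Clusters 15 and 18 stayed unnamed (144, 8 and 189 cells). Cluster 15 had B cell markers raised but low counts and none of them among its 10 leading genes. Leading genes of the clusters were not used as results.

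Counts in common regions overlapping a gene or 2 kb on each side were summed per class and library with at least 20 cells and tested with edgeR 4.0.16 (R 4.3.3, TMM, quasi-likelihood, filterByExpr, two-sided, Benjamini-Hochberg over all genes). The age fits have 1 residual degree of freedom and 1 young library, so spread was borrowed across genes. Class fits had library as a term and 13 sums of 5 classes. Scripts were tested on simulated data. The alternatives were RLE, DESeq2 1.42.0, no filter, all merged regions, start sites only, fragments, at least 3000 counts, doublets kept, clustering on all regions, shared clusters and each library left out. Leaving out cluster 14 and the class tests of single regions were added after seeing the data. A B or plasma class was planned in the class fit but had no named cluster at 1000 counts. Intervals use fragments (counts over 2, rounded up), since 94.3%, 90.9% and 89.5% of values were even, and cover counting error only. All 9 genes are named, with up to 3 genes per list and comparison by smallest adjusted p. Of the regions, the one over the start site is given. For Ears2, Lars2, Fars2, Mto1 and Gtpbp3 the other one with the highest mean CPM is given too. The Gtpbp3 region near Plvap and the further Fars2 regions were named outside this rule. The members and lists were chosen with earlier results of these data known.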

Additional observations from a re-analysis of the deposited data

How the results depend on the processing

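No paired analysis of age was possible because the old and young libraries came from mice of different ages, and class comparisons carry library as a term. For age, 0 of the 9 genes were called under each alternative that gave a test. Several small age differences, none of them called, changed sign, and the cause was not tested. In proximal tubule-like cells these were, on the log2 scale, with shared clusters Ears2 (-0.049), Qrsl1 (0.047) and Gtpbp3 (0.012), with all merged regions Mto1 (0.086), and within 2 kb of a start site Lars2 (-0.26) and Fars2 (0.063). In loop to collecting duct-like cells they were with all merged regions Gatc (-0.013), with fragments Mto1 (-0.14), with at least 3000 counts Mto1 (-0.025) and Fars2 (0.032), with doublets kept Mto1 (-0.13) and Lars2 (-0.035), and within 2 kb of a start site Gtpbp3 (-0.20) and Lars2 (-0.019). With each old library left out in turn, with no test, differences ranged in proximal tubule-like cells from -0.13 to 0.25 for Ears2, -0.36 to 0.038 for Gtpbp3 and -0.13 to 0.37 for Lars2, and in loop to collecting duct-like cells from -0.014 to 0.54 for Gatb, -0.28 to 0.42 for Mto1, -0.065 to 0.15 for Gtpbp3 and -0.00030 to 0.027 for Lars2.

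Of the class comparisons, start-site regions alone called 0 genes against endothelium-like cells, 1 against macrophage or dendritic-like cells and 1 against T or NK-like cells, and turned Lars2 (-0.10) and Fars2 (-0.22) against endothelium-like cells and Mto1 (0.032) against macrophage or dendritic-like cells. By its construction this setting leaves out the regions inside Lars2 and Fars2 that hold most of their proximal tubule-like counts, and the region over the start of Cgas in the Mto1 counts. Against macrophage or dendritic-like cells 3 genes were called with RLE (Fars2, Lars2 and Mto1), 3 with DESeq2 and 3 with all merged regions. In the setting with all merged regions, a region without a peak in a library is at 0 there by construction. Against loop to collecting duct-like cells 1 was called with all merged regions, and 1 to 2 with each library left out. Over all genes, the count called for age in proximal tubule-like cells went from 190 to 78 with DESeq2, 98 at start sites, 66 with shared clusters, 33 without cluster 14 and 0 with all merged regions, and in loop to collecting duct-like cells from 0 to 30 with RLE, 30 with no filter, 30 at start sites, 34 with fragments, 37 with at least 3000 counts, 38 with doublets kept, 2 with all merged regions, and 1 each with DESeq2 and with clustering on all regions. Against loop to collecting duct-like cells the 4695 genes called fell to 2998 with all merged regions, 1751 at start sites and 1816 without old replicate 2. B or plasma-like cells gave no value below 3000 counts per cell. Depth limits the smaller classes most: in T or NK-like cells of the young library Gatc had 8 counts.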
